A study of Homo sapiens with 9 samples.

Results

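The expression of 36 genes of cholesterol synthesis, fatty acid synthesis and the liver X receptor (LXR) pathway was examined in MDA-MB-231 cells, an established line of human triple negative breast cancer. The genes are a list of pathway members, drawn up with earlier results of these data known. Of the 36 genes, 33 had a probe of their own among the 19460 probes paired with 1 gene symbol, which cover 18417 genes. FDFT1, HSD17B7 and NR1H2 had none and were not analysed here. FDFT1 and NR1H2 were paired with no probe, and the probe of HSD17B7 is shared with another symbol. Cells were treated for 24 hours with 2.5 µM SID peptide, a decoy of the domain through which transcription factors bind the SIN3 corepressor, or with the scrambled peptide SCR (2.5 µM by the methods), or were left untreated (UT). All groups are of the same line, grown in the same serum-containing medium, and each group has 3 Affymetrix arrays (9 in all). The labels call the 3 arrays of a group independent replicates, while the methods speak of 2 independent biological replicates without saying which arrays these are. Values are log2 signals, so that a difference of 1 is a 2-fold change. The number of arrays limits the precision.

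Cholesterol is made from acetyl-CoA through mevalonate, farnesyl units, squalene and lanosterol. The genes of this route and of fatty acid synthesis are switched on by the transcription factors SREBP-2 and SREBP-1, which the INSIG proteins hold back in the endoplasmic reticulum, bound to their escort SCAP, when sterols are plentiful. Oxidised sterols activate the LXR nuclear receptors, which raise genes of cholesterol export such as ABCA1. The SREBP and LXR arms therefore act on cellular cholesterol in opposite directions.

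The arrays fell into 2 sets. Replicates 1 and 2 of SID and SCR correlated with replicate 3 of SID and SCR and with UT at 0.908 to 0.929 across probes, whereas SID replicate 3 and SCR replicate 3 correlated with each other at 0.996. A supplementary file of the study puts a prefix before the names of both replicate 3 arrays, and names SCR replicate 3 as 72 hours, where the labels give 24. Of the markers listed for MDA-MB-231, 4 had a probe (VIM, CAV1, AXL and MSN), and their median signal lay between 12.14 and 13.27 on every array, against a median of 8.38 to 8.46 over all tested probes. AXL, a receptor kinase, was at 12.95 to 13.31 on replicates 1 and 2 of SID and SCR and at 9.95 to 10.14 on the other arrays. FOXA1, a luminal factor listed as low in this line, was at 8.25 to 10.03, so that it was not low throughout. GATA3, also listed as low, was above the array median on replicates 1 and 2 of SID and SCR (8.74 to 10.05). ESR1 and PGR were at 5.61 to 7.23. The leukocyte, endothelial and hepatocyte lists had median signals of 5.91 to 7.53. PECAM1, an endothelial marker, was at 6.33 to 7.96 on replicates 1 and 2 of SID and SCR and at 5.73 to 6.18 on the other arrays. The part of these markers in the results was not tested. Therefore each value is given by array, and SID was compared with SCR within each set.

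Averaged over the 3 replicates, no member passed the test between SID and SCR. A call needed an adjusted p under 0.05 by limma (Benjamini-Hochberg over 19460 probes) and a log2 difference above 1 or below -1. By this rule 0 of 33 members and 0% of all probes were called, and the lowest adjusted p of a member was 0.657. At an unadjusted p under 0.05 there were 4 members (ABCA1, ACAT2, MYLIP and INSIG2), where 7.57% of all probes reached it. The methods' t-test gave 0 members after adjustment. The mean difference was above 0 for 19 members and below it for 14 (55.2% of all probes were above 0), and its median was 0.01, against 0.02 over all tested probes. PMVK was the only member whose 3 SID and 3 SCR arrays did not overlap, a property of 5.66% of all probes.

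Within the first set of arrays (replicates 1 and 2), 4 of the 33 members were called. ABCA1, MYLIP and INSIG2 rose and ACAT2 fell in SID, against 5.26% of all probes called, 1.95% higher and 3.31% lower. The sets were split with earlier results of these data known. The fit gives SID and SCR of each set a mean of their own on all 9 arrays. Its error comes from the 2 arrays per group of the first set and from the 3 UT arrays, and replicate 3 of SID and of SCR, each a lone array, is assumed to vary likewise. In replicate 3 no member differed by more than 1 (-0.19 to 0.39), which 0.293% of all probes did. The difference between SID and SCR itself was unlike in the 2 sets for ABCA1, INSIG2 and ACAT2 (limma's interaction test), with 4.87% of all probes called. Whether the prefix, a time other than 24 hours or another change between the sets moved these signals was not tested.

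**Figure D1:**
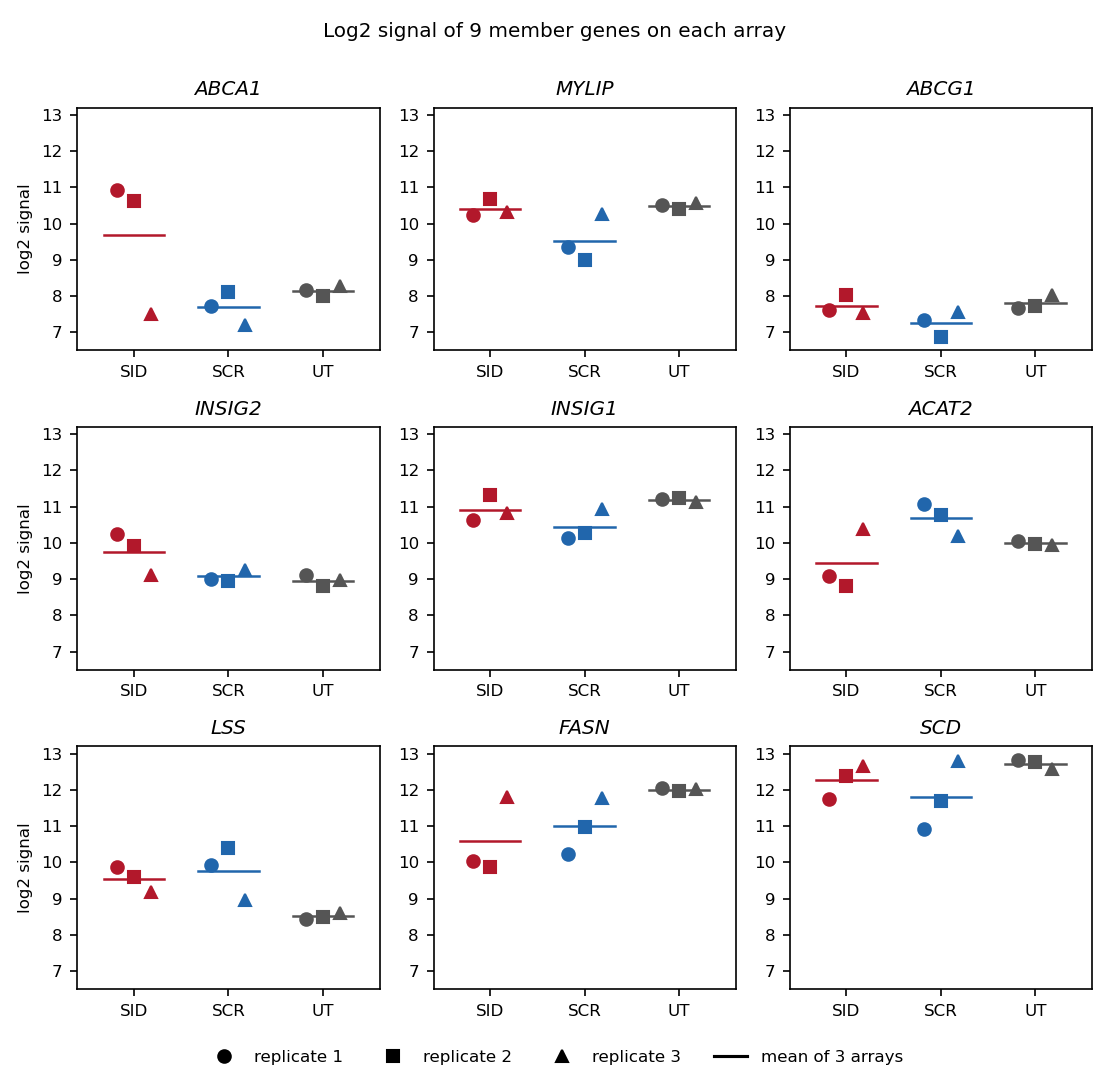
Log2 signal (y axis) of 9 member genes on the SID, SCR and UT arrays (x axis), with 1 point per array, its shape giving the replicate, and a line at the mean of 3 arrays. ABCA1 stood at 10.9 and 10.6 on SID replicates 1 and 2 and at 7.50 on SID replicate 3, and MYLIP was lowest on SCR replicates 1 and 2.

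Among the LXR genes, ABCA1 had the largest difference of all members. ABCA1, the transporter that loads cellular cholesterol onto lipid-poor apolipoprotein, lies at chr9:104781006-104928155 (GRCh38.p14). Its log2 signal was 10.93, 10.62 and 7.50 in SID replicates 1 to 3, 7.74, 8.11 and 7.21 in SCR and 8.17, 8.004 and 8.29 in UT. SID replicates 1 and 2 lay above every other array, while SID replicate 3 lay among the SCR arrays and below all UT arrays, so that the groups overlapped. These levels placed ABCA1 at percentiles 85.7 and 81.8 of all probes on SID replicates 1 and 2, and at percentiles 31.1 to 47.7 on the other 7 arrays. The difference, SID minus SCR, was 3.20, 2.51 and 0.29 by replicate, with a mean of 2.00 (standard error 0.83, adjusted p = 0.657 by limma). Within replicates 1 and 2 it was 2.85 (standard error 0.16, 7.22-fold, adjusted p = 1.12e-04 by limma), the fourth highest of 19460 probes. It exceeded that of replicate 3 by 2.56 (standard error 0.28, adjusted p = 0.006 by limma's interaction test). In these bulk samples more RNA per cell and more cells that express a gene cannot be told apart.

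MYLIP, a ubiquitin ligase that marks lipoprotein receptors for degradation and a known LXR target, differed in another way. Its log2 signal was 10.23, 10.68 and 10.32 in SID, 9.34, 8.99 and 10.25 in SCR and 10.51, 10.40 and 10.58 in UT. The SID arrays lay near UT, and SCR replicates 1 and 2 lay below all other arrays. The difference, SID minus SCR, was 0.89, 1.69 and 0.07 by replicate, and 1.29 within replicates 1 and 2 (standard error 0.17, 2.45-fold, adjusted p = 0.002 by limma). The excess over replicate 3 was 1.22 and did not pass the interaction test (adjusted p = 0.051). Against UT, MYLIP differed by -0.04 in SID replicates 1 and 2 and by -1.33 in SCR replicates 1 and 2.

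ABCG1, which exports cholesterol to mature high-density lipoprotein, had log2 signals of 7.61, 8.03 and 7.53 in SID, 7.34, 6.87 and 7.57 in SCR and 7.67, 7.73 and 8.02 in UT. SCR replicate 2 was the lowest array and the groups overlapped. The difference was 0.72 within replicates 1 and 2 (standard error 0.20, adjusted p = 0.039 by limma), below the limit of 1 for a call. LPCAT3, which puts polyunsaturated fatty acids into membrane phospholipids, was the LXR target with the lowest difference, at -0.14 over all replicates and -0.41 within replicates 1 and 2 (adjusted p = 0.147). Averaged over the replicates, all of the 4 members listed here as LXR targets but LPCAT3 were higher in SID than in SCR. Each member stands in 1 list only, and another grouping would change these counts. Their median difference was 0.67, which by replicate was 0.58, 1.43 and 0.18. In replicate 3, LPCAT3 was higher in SID (0.39) and ABCG1 lower (-0.03). Against UT, ABCA1 was higher in SID over all replicates and the other 3 were lower (median of the 4 -0.08). NR1H3, the receptor LXRα, averaged 8.26 ± 0.36 in SID, 8.04 ± 0.36 in SCR and 8.55 ± 0.07 in UT (SD, n = 3 each), and its difference of 0.22 between SID and SCR had an adjusted p of 0.861 by limma.

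The promoter windows of ABCA1 and MYLIP, the LXR targets called within the first set, are shown with matches to 5 motifs in capitals. Each window runs from 250 bases before the start of the transcript to 50 bases into it (RefSeq, GRCh38.p14), 5′ to 3′ on the strand of the gene. ABCA1 is at chr9:104928106-104928405 on the minus strand and MYLIP at chr6:16128836-16129135 on the plus strand.
ABCA1: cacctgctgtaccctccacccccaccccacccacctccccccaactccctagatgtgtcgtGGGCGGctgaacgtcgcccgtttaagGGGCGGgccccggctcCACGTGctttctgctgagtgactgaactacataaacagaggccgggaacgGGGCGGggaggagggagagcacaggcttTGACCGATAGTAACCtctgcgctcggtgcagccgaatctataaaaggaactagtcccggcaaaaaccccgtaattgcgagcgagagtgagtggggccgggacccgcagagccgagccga
MYLIP: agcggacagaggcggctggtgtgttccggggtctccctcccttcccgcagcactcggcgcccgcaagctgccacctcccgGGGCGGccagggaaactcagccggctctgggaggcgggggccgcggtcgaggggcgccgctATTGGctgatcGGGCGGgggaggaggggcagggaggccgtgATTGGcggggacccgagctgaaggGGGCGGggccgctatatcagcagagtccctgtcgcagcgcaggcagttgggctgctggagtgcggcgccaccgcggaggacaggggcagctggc
The motifs, on either strand, were the SREBP element TCACNCCAC, the E-box CACGTG, the NF-Y box CCAAT, the Sp1 box GGGCGG and the LXR element. The last was searched as a direct repeat of GGTNA and GGTCA with 5 bases of any kind between them. In the table of 35116 windows, these motifs were found in 1.13%, 7.26%, 34.6%, 45.0% and 0.239% of windows in that order. Matches of different motifs did not overlap in the windows shown. Of 31 members with a window, only ABCA1 held the LXR element, on the opposite strand, 69 to 55 bases before the start. It also held an E-box and 3 Sp1 boxes. MYLIP held 2 NF-Y boxes and 3 Sp1 boxes. No window was found for ABCG1, ACAT2, FASN, FDFT1 and SQLE. A match is a description of these letters.

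Among SREBP and the genes that hold it back or carry it, INSIG2 differed most. Averaged over the replicates, 5 of the 5 genes had a difference between SID and SCR above 0 (0.15 to 0.69, median 0.17), none with a call. By replicate, it was above 0 for 5 genes in replicate 1 and for 3 in each of replicates 2 and 3. INSIG2, which retains SCAP and SREBP in the endoplasmic reticulum, had log2 signals of 10.26, 9.91 and 9.12 in SID, 9.003, 8.96 and 9.26 in SCR and 9.10, 8.80 and 8.98 in UT. SID replicates 1 and 2 lay above all other arrays, and the SID group overlapped with SCR through replicate 3. Within replicates 1 and 2 INSIG2 rose by 1.10 (standard error 0.14, 2.14-fold, adjusted p = 0.002 by limma). This exceeded the difference of replicate 3 by 1.25 (standard error 0.25, adjusted p = 0.027 by limma's interaction test).

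INSIG1, the paralogue of INSIG2 and itself a target of SREBP, had log2 signals of 10.63, 11.32 and 10.82 in SID, 10.14, 10.26 and 10.94 in SCR and 11.21, 11.24 and 11.13 in UT. SCR replicates 1 and 2 were the lowest arrays, and SID replicate 2 alone of the peptide-treated arrays lay above UT. Its difference within replicates 1 and 2 was 0.78 (standard error 0.20, adjusted p = 0.026 by limma), below the limit for a call. SREBF1, SREBF2 and SCAP, which encode SREBP-1, SREBP-2 and their escort, differed by 0.15, 0.15 and 0.17 on average, and by 0.14, 0.16 and 0.19 within replicates 1 and 2 (adjusted p of 0.485 to 0.710). SREBF1, at the low end of this list, was higher in SID in replicate 1 and lower in replicate 2 (0.56 and -0.28).

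The windows of INSIG2, the gene of this list that was called, and of SREBF2 are shown in the same way. Of the 31 members with a window, SREBF2 alone matched the SREBP element as spelled here. Other forms of that element and bases outside the windows were not searched. INSIG2 is at chr2:118088221-118088520 and SREBF2 at chr22:41832855-41833154, both on the plus strand.
INSIG2: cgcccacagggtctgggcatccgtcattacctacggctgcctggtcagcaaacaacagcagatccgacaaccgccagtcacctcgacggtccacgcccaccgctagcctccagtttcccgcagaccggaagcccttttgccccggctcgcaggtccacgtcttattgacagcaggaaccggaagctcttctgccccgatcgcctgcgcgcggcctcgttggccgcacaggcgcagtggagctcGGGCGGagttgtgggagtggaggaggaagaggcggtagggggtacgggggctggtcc
SREBF2: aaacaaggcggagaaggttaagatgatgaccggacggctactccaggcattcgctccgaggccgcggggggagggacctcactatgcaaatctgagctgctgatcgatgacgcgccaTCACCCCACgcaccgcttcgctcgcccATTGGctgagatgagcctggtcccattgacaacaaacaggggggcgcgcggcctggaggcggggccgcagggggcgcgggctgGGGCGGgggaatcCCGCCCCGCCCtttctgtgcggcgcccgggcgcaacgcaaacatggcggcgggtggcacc
In the window shown, which lies at the start of the gene in the annotation, INSIG2 held an Sp1 box 7 to 2 bases before the start and no match to the other motifs. A further window of INSIG2 overlaps it and holds the same box, 86 to 81 bases before its own start. SREBF2 held the SREBP element 133 to 125 bases before the start, followed by an NF-Y box 106 to 102 bases before it. E-boxes were found in 5 of 31 members (ABCA1, INSIG1, LSS, SC5D and SCAP), against 8.77% of genes. The NF-Y box was found in 23 of 31 members, and in 13 of the 15 sterol synthesis enzymes with a window, against 39.7% of genes. The Sp1 box was found in 30 of 31 members and in 14 of these 15 enzymes, against 48.3% of genes. The NF-Y box was thus not the only motif more frequent among members than among all genes.

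**Figure D2:**
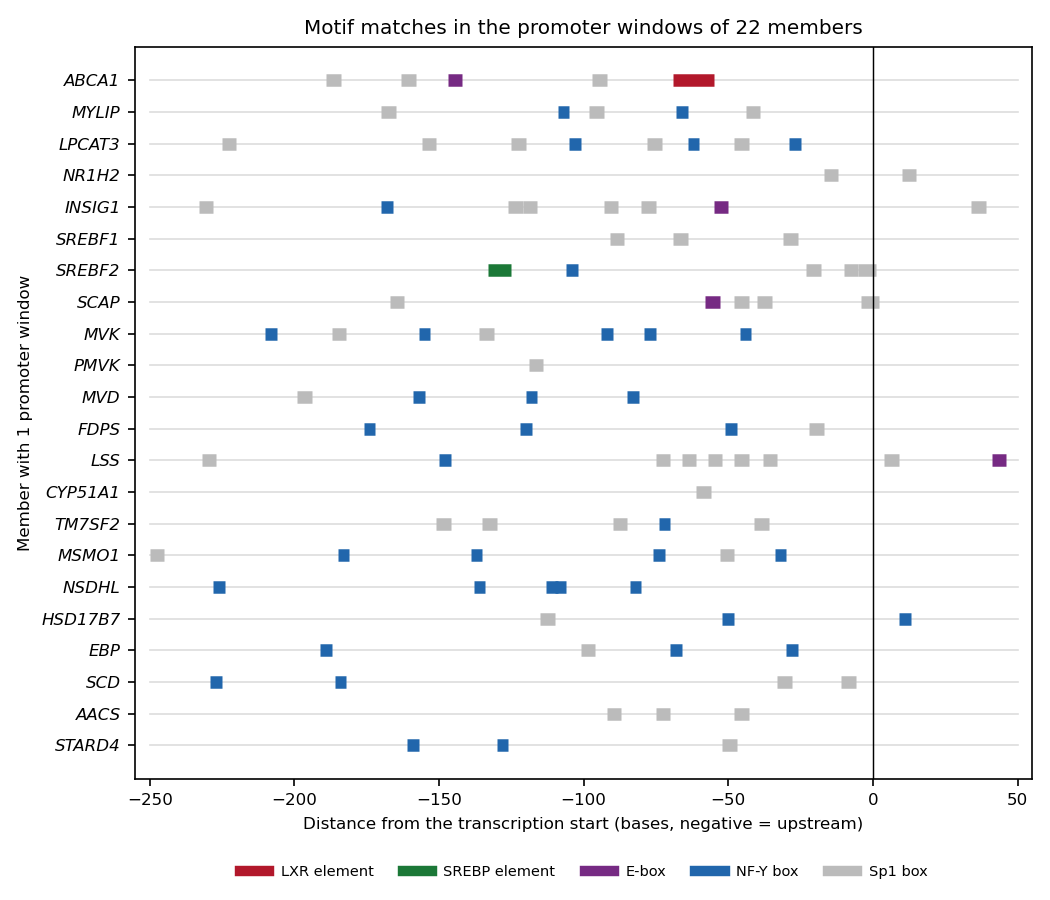
Positions of motif matches by distance from the transcription start in bases (x axis, negative upstream) for the 22 members with 1 promoter window (y axis), with a colour per motif. The LXR element is drawn for ABCA1 alone and the SREBP element for SREBF2 alone. NF-Y boxes recur among the sterol synthesis enzymes, and Sp1 boxes occur among members of every role.

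Sterol synthesis enzymes differed little between SID and SCR, except ACAT2. Of the 16 enzymes measured, 7 had a difference above 0 and 9 below it (median -0.08). Within replicates 1 and 2 these counts were 4 and 12 (median -0.16), where 11322 of all 19460 probes were above 0 (median 0.04). The members with the highest and lowest difference were MSMO1 (0.21), a methyl sterol oxidase, and ACAT2 (-1.24). ACAT2, the cytosolic thiolase that joins acetyl-CoA units in the first step of the route, lies at chr6:159762045-159779112. Its log2 signal was 9.10, 8.82 and 10.39 in SID, 11.08, 10.77 and 10.19 in SCR and 10.04, 9.96 and 9.95 in UT. In replicates 1 and 2 the SID arrays lay below UT and the SCR arrays above UT, and in replicate 3 both lay above UT. The difference was -1.98, -1.95 and 0.21 by replicate, with a mean of -1.24 (standard error 0.41, adjusted p = 0.657 by limma). Within replicates 1 and 2 ACAT2 fell by 1.96 on the log2 scale (standard error 0.13, adjusted p = 1.89e-04 by limma), which is 3.89-fold lower. The difference from replicate 3 was -2.17 (standard error 0.23, adjusted p = 0.006 by limma's interaction test).

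The other enzymes stayed closer together. FDPS, which makes farnesyl diphosphate, had log2 signals of 10.06, 10.04 and 11.50 in SID, 10.51, 10.32 and 11.55 in SCR and 11.54, 11.36 and 11.41 in UT. The arrays of the first set were low in both peptide groups, and SID and SCR differed by -0.36 within it (standard error 0.10, adjusted p = 0.039 by limma). HMGCS1, MVK, PMVK, MVD and IDI1, the enzymes from HMG-CoA synthesis to isopentenyl diphosphate, differed by -0.04, -0.35, -0.22, -0.09 and -0.33 within replicates 1 and 2. SQLE, LSS, CYP51A1, TM7SF2, MSMO1, NSDHL, EBP, SC5D and DHCR7, from squalene oxidation to cholesterol, ranged from -0.42 (LSS) to 0.39 (MSMO1) there. FDPS apart, none of these 14 enzymes had an adjusted p under 0.05 in that comparison (lowest 0.057, for MVK). PMVK, the enzyme without overlap, had 8.17, 8.09 and 8.16 in SID, 8.50, 8.19 and 8.21 in SCR and 8.02, 8.23 and 8.19 in UT. The gap between its lowest SCR and highest SID array is small, and its mean difference of -0.16 had an adjusted p of 0.729.

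**Figure D3:**
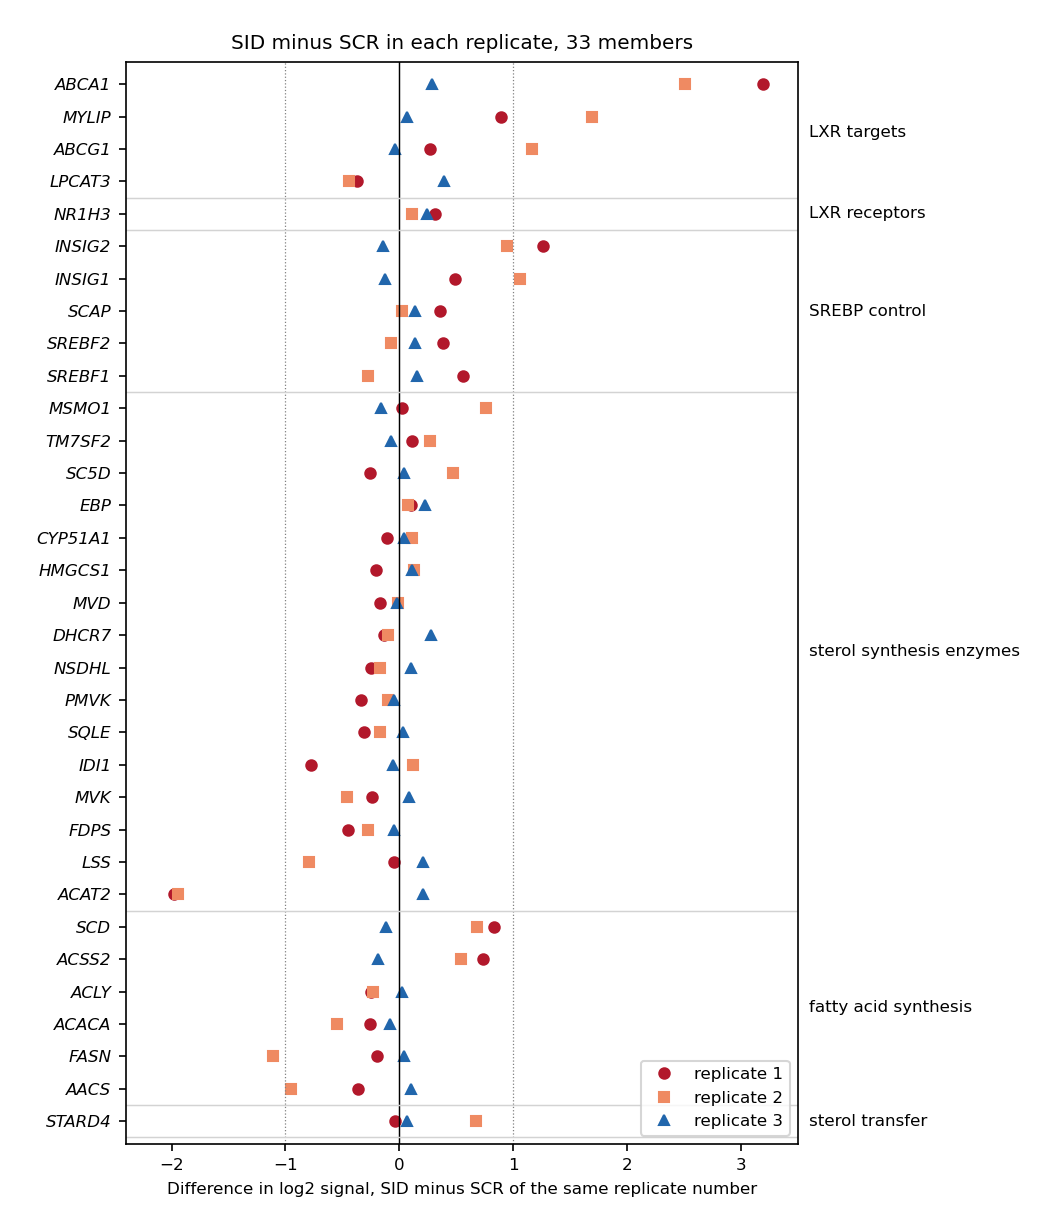
Difference in log2 signal, SID minus SCR, in replicates 1, 2 and 3 (x axis, a point per replicate) for the 33 members (y axis, grouped by role and ordered by the mean of replicates 1 and 2). Replicate 3 lies between -0.19 and 0.39 for every member, while ABCA1 reached 3.20 and ACAT2 -1.98 in replicate 1.

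The fatty acid genes did not move together between SID and SCR. Of 6 genes, SCD and ACSS2 had a difference above 0 and FASN, ACACA, ACLY and AACS below it, and the median was -0.22. None was called over all replicates or within the first set. SCD, the desaturase that makes monounsaturated fatty acids, had log2 signals of 11.75, 12.37 and 12.67 in SID, 10.92, 11.69 and 12.79 in SCR and 12.82, 12.76 and 12.59 in UT. SCR replicate 1 was the lowest array. The difference within replicates 1 and 2 was 0.76 (standard error 0.27, adjusted p = 0.085 by limma). FASN, the fatty acid synthase, had log2 signals of 10.04, 9.87 and 11.82 in SID, 10.24, 10.98 and 11.77 in SCR and 12.05, 11.96 and 12.02 in UT. All peptide-treated arrays lay below UT, those of the first set by the most, and its difference was -0.65 within that set (standard error 0.21, adjusted p = 0.060 by limma).

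ACSS2, which makes acetyl-CoA from acetate, had log2 signals of 10.27, 10.38 and 9.93 in SID, 9.54, 9.84 and 10.11 in SCR and 10.23, 10.55 and 10.41 in UT. SID was higher than SCR in replicates 1 and 2 and lower in replicate 3. The difference was 0.64 within replicates 1 and 2 (standard error 0.14, adjusted p = 0.014 by limma), below the limit for a call. AACS, which makes acetoacetyl-CoA from ketone bodies, had log2 signals of 9.004, 8.85 and 9.78 in SID, 9.37, 9.80 and 9.68 in SCR and 9.68, 9.66 and 9.93 in UT. SID replicates 1 and 2 were its lowest arrays, with a difference of -0.66 (standard error 0.16, adjusted p = 0.021 by limma). ACACA, the acetyl-CoA carboxylase, had log2 signals of 9.74, 9.74 and 10.72 in SID, 9.99, 10.29 and 10.80 in SCR and 10.85, 10.63 and 10.88 in UT. Replicates 1 and 2 of both peptides were its lowest arrays, and SID lay below SCR in every replicate (-0.26, -0.55 and -0.08). The difference within replicates 1 and 2 was -0.40 (standard error 0.13, adjusted p = 0.058 by limma). ACLY, the citrate lyase, differed by -0.24 there. STARD4, a cytosolic sterol carrier and the only member of its role, averaged 9.42 ± 0.38 in SID, 9.18 ± 0.05 in SCR and 9.06 ± 0.12 in UT (SD, n = 3 each).

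Against UT, again no member was called over all replicates, in SID (0% of all probes, lowest adjusted p = 0.388) or in SCR (0% of all probes, lowest adjusted p = 0.332). At an unadjusted p under 0.05 there were 5 members in SID and 7 in SCR, where 12.5% and 14.4% of all probes reached it. Of the 33 members, 25 were lower in SID than in UT (median -0.26) and 23 were lower in SCR than in UT (median -0.27), against medians of 0.02 and 0.01 over all probes. In replicate 3, 15 members were below the UT mean in SID (median 0.03) and 18 in SCR (median -0.03). With the array set as a block, 17 were lower in SID (median -0.0065) and 18 in SCR (median -0.0050). Both comparisons share the UT arrays. The UT arrays lie with the second set, so that peptide and set cannot be told apart for replicates 1 and 2. Set beside UT, SID replicates 1 and 2 had 8 members called (13.3% of all probes) and SCR replicates 1 and 2 had 7 (11.4% of all probes).

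LSS, lanosterol synthase, differed most between SCR and UT. Its log2 signal was 9.88, 9.59 and 9.18 in SID, 9.93, 10.38 and 8.97 in SCR and 8.45, 8.49 and 8.61 in UT. All peptide-treated arrays lay above all UT arrays, replicate 3 included, where SID exceeded the UT mean by 0.66 and SCR by 0.46. Replicates 1 and 2 exceeded it by 1.23 in SID and by 1.64 in SCR. SC5D, a desaturase of late sterol synthesis, had 11.52, 11.96 and 10.22 in SID, 11.78, 11.49 and 10.19 in SCR and 10.49, 10.33 and 10.12 in UT. Replicates 1 and 2 of both peptides were high and replicate 3 lay with UT.

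The members low in replicates 1 and 2 of both peptides were led by FASN, at -2.05 in SID and -1.40 in SCR against UT, and FDPS, at -1.38 and -1.02 in the same order. SREBF2 (-0.87 in SID and -1.03 in SCR) and SCD (-0.66 in SID and -1.42 in SCR) passed the limit in SCR only, and ACACA (-1.05 in SID and -0.64 in SCR) in SID only. For these, SID and SCR did not differ by a call. In replicate 3, SID differed from the UT mean by -0.66 (ABCA1) to 0.66 (LSS) and SCR by -0.95 (ABCA1) to 0.46 (LSS).

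**Figure D4:**
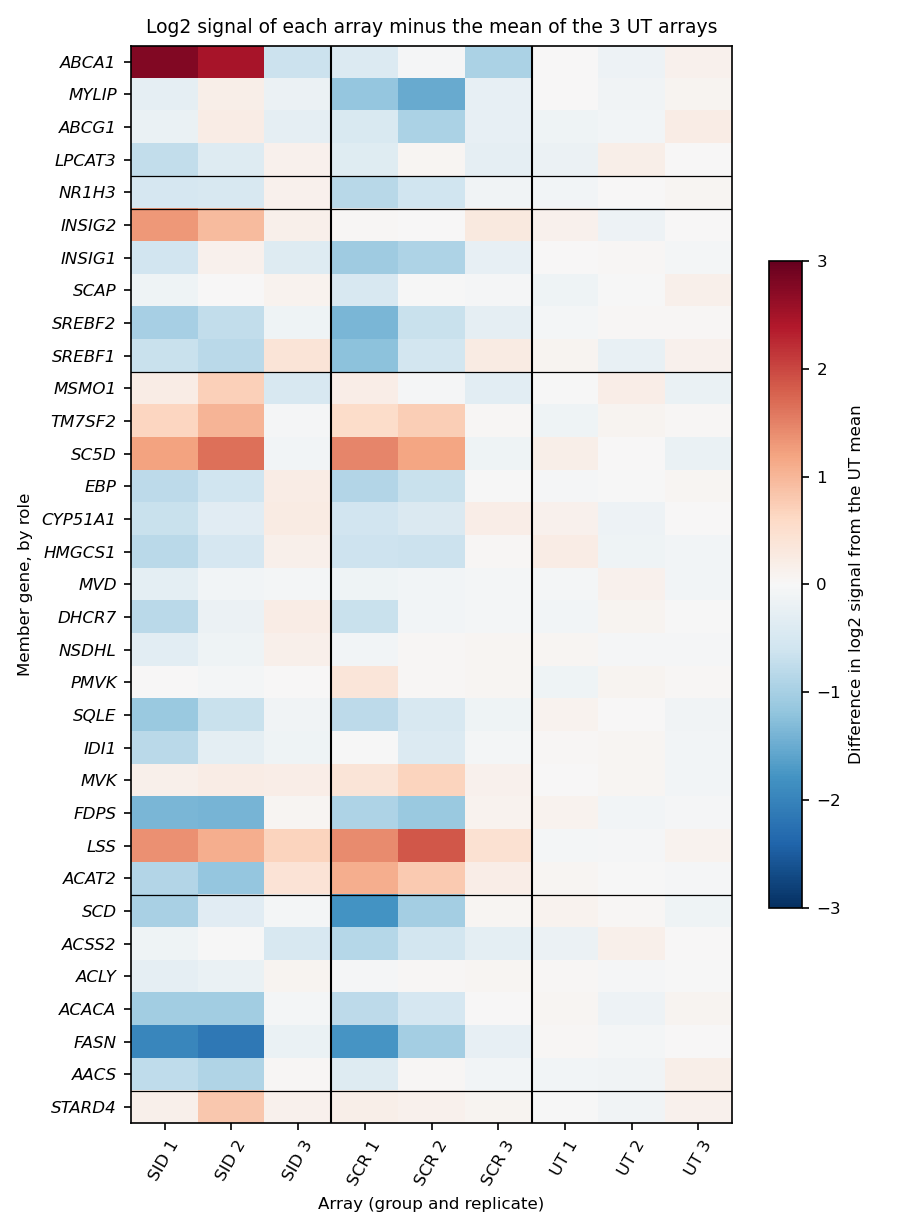
Log2 signal of each array minus the mean of the 3 UT arrays (colour, red above and blue below) for the 33 members (y axis, by role) on the SID, SCR and UT arrays (x axis). Within their own rows, ABCA1 and INSIG2 are redder on SID replicates 1 and 2 than on any other array. ACAT2 is blue on those arrays and red on SCR replicates 1 and 2, and LSS is red on all 6 peptide-treated arrays.

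Of 41 further genes of these pathways, 39 were measured. Their difference between SID and SCR was above 0 for 27 and below it for 12 (median 0.10), where 55.2% of all probes were above 0. Over all replicates 0 were called (0% of all probes). Within replicates 1 and 2, 2 were called higher and 1 lower, where 1.95% of all probes were called higher and 3.31% lower. The called genes, given next, were picked by that result. VLDLR, a receptor of triglyceride-rich lipoprotein that MYLIP also marks for degradation, had log2 signals of 9.82, 9.79 and 9.96 in SID, 8.45, 8.92 and 9.78 in SCR and 10.05, 9.82 and 10.02 in UT. As for MYLIP, SCR replicates 1 and 2 were the low arrays. CYP27A1, which makes an oxysterol that activates LXR, had 8.62, 8.80 and 6.61 in SID, 7.56, 7.77 and 6.63 in SCR and 6.38, 6.61 and 6.54 in UT. CH25H, which makes another oxysterol, had 6.84, 6.84 and 6.74 in SID, 8.36, 8.11 and 6.75 in SCR and 6.59, 6.83 and 6.49 in UT. The enzyme CYP27A1 was highest on SID replicates 1 and 2, and CH25H was raised on SCR replicates 1 and 2 alone. Of the retinoid X receptors, the LXR partners, RXRA differed by 0.21 and RXRB by 0.25 over all replicates.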

How the data were processed

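The deposited values are log2 signals per probe, normalized between arrays by the authors, whose processing notes name Affymetrix Expression Console, RMA and Transcriptome Analysis Console without versions or settings. No source names the scale, and log2 was inferred from their range (3.75 to 14.94). The genome build is not given in the sources used here. RMA compresses differences between low signals. The study's ChipInspector analysis of single probes was not repeated.

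Of 33297 probes, 19460 are paired with 1 gene symbol in the platform annotation (1754 with several, 12083 with none), and 19429 of them were matched by Entrez ID. These were fitted with lmFit and eBayes (limma 3.58.1, R 4.3.3), first with the groups SID, SCR and UT, then with SID and SCR split into replicates 1 and 2 and replicate 3. The probe with the highest mean over 9 arrays stands for a gene. Members, lists and the split of the replicates were chosen with earlier results of these data known. Values by array are given for the 12 members with the largest difference between SID and SCR and the 5 between SCR and UT, and for PMVK and 3 genes of the wider lists, which were chosen after their values were seen. The highest and lowest member of each list is named. The procedure was tested on simulated data. P-values measure the spread between these arrays.

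Same-numbered SID and SCR replicates deviated together (correlations of 0.774, 0.575 and 0.791). SID replicate 1 did so with SCR replicate 2 as well (0.748), and SID replicate 2 more with SCR replicate 1 (0.604) than with its own number. These correlations follow the 2 sets of arrays and do not show pairs within the first. The differences by replicate and the replicate block take the numbers as pairs, while the main fits are unpaired. SID and UT were not paired (0.030 to 0.215). Promoter windows were searched with Python 3.11.15, and figures were drawn with matplotlib 3.10.9. The motif shares count windows or genes of the RefSeq table. Alternatives are given in the closing section.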

Additional observations from a re-analysis of the deposited data

Results flagged for a closer look

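For 3 members the difference between SID and SCR in replicates 1 and 2 differed from that in replicate 3 by limma's interaction test, in which 4.87% of all probes were called. For ABCA1 it was greater by 2.56 (standard error 0.28, adjusted p = 0.006). For INSIG2 it was greater by 1.25 (standard error 0.25, adjusted p = 0.027). For ACAT2 the contrast was -2.17 (standard error 0.23, adjusted p = 0.006). Replicate 3 holds 1 array of SID and 1 of SCR, whose spread was taken from the other arrays. Because the split was chosen with earlier results of these data known, this test is no independent evidence that the sets differ.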

How the results depend on the processing

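No member was called between SID and SCR with quantile normalization, centring, the filter on dim probes or the mean of all probes of a gene. Nor was any called with the array set as a block (lowest adjusted p = 0.171 by limma) or by the t-test that the methods name in general. With the replicate block, which pairs SID and SCR by number, 0 members were called (lowest adjusted p = 0.526), and with a replicate block on all 9 arrays, a choice made after seeing the data, 0 were called against UT (0.210 in SID and 0.202 in SCR). With replicates 1 and 2 alone 4 members were called (ABCA1, ACAT2, INSIG2 and MYLIP, with 4.41% of all probes), and with array weights, whose estimate gave 1 convergence warning, 3 (ABCA1, ACAT2 and INSIG2, with 3.91% of all probes). Leaving out 1 array gave 0 to 3 members, with 3 (ABCA1, ACAT2 and INSIG2, with 3.33% of all probes) without SID replicate 3 and 1 (MYLIP, with 1.15%) without SCR replicate 3. Against UT, array weights gave 7 members in SID (12.3% of all probes) and 8 in SCR (10.9%). Leaving out 1 array gave 0 to 6 in SID (6 without SID replicate 3, with 10.0% of all probes) and 0 to 3 in SCR (3 without SCR replicate 3, with 5.5% of all probes).

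The median of the sterol synthesis enzymes lay between -0.22 (without SID replicate 3) and 0.0067 (without SID replicate 1) when 1 array was left out. That of the fatty acid genes lay between -0.44 (without SID replicate 3) and -0.054 (without SCR replicate 3), and was -0.026 with replicate 3 and UT alone. With replicate 3 and UT alone, signs were followed for the 12 members with the largest difference between SID and SCR. Among them the sign turned for ACAT2 (0.21), INSIG2 (-0.15), INSIG1 (-0.13), ABCG1 (-0.035), SCD (-0.12), FASN (0.045), AACS (0.10) and ACSS2 (-0.19). It also turned for members outside these 12, such as LPCAT3 (0.39) and LSS (0.21). Of the 5 members followed between SCR and UT, it turned for SCD (0.063) and SC5D (-0.13). FDPS lay between -0.74 without SID replicate 3 and 0.12 without SCR replicate 3, and SC5D between SCR and UT to -0.15 with the array set as a block. The cause was not tested. The signals hold no depth, and with few arrays a lack of calls does not show that a member is unchanged.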

Other observations

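CYP51A1, the lanosterol demethylase, has a further probe with 1 symbol, on which SID minus SCR was -0.05, against 0.01 on the probe reported.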
